A study of Mus musculus with 22 samples.

Results

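Checkpoint and costimulatory ligands are surface or secreted proteins through which a cell tells a T cell or a natural killer cell to act or to hold back. Of these, 10 were followed here by gene symbol, among 41388 genes counted in every library: Cd274, Pdcd1lg2, Cd80, Cd86, Icosl, Vsir, Cd276, Pvr, Nectin2 and Lgals9. The question was which sorted population of the tumor stroma held the transcript of each ligand, in both genotypes. All 10 symbols matched 1 gene each, and all 10 passed the filter on low counts.

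The samples were C57BL/6 mice at postnatal day 56 bearing tumors of a breast cancer line that the labels name MMTV-BO1. The labels call the tumors orthotopic, the series' design text calls them subcutaneous, and the study's text describes GFP-labeled PyMT-BO1 cells under the skin, while its methods name the mammary fat pad for PyMT cells. Both genotypes carried Osx-cre, a doxycycline-repressible Cre driven by regulatory sequence of Sp7 (Osterix), and the Ai9 reporter. TdTomato (TdT) therefore marks cells with present or past Osx-cre activity. The study's text states that mice fed doxycycline until weaning, which suppresses the Cre until then, were used after its initial tracing. It does not repeat this for the sequenced mice. The control group, labelled wild type, was Osx-cre;Ai9, and the other group, labelled Cdh2-cKO, was Cdh2-cKO;Ai9, with the N-cadherin gene Cdh2 targeted in Osx+ cells. Stromal cells were parted from the GFP+ tumor cells and sorted into TdT single positive (TdT+;CD45-), double positive (TdT+;CD45+), CD45 single positive (TdT-;CD45+) and double negative (TdT-;CD45-) cells. There were 22 libraries, with 2 TdT single positive libraries per genotype and 3 of each other kind. CD45, encoded by Ptprc, is the common leukocyte surface protein. Per the labels, 4 Osx-cre;Ai9 and 6 Cdh2-cKO;Ai9 mice were inoculated, and libraries were chosen by RNA quality. Each genotype had 11 libraries, more than its mice, so some libraries came from the same mouse. The labels do not tie libraries to mice, so the main tests treat libraries as unpaired. Their p-values measure the spread between these samples and not between independent animals.

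T cells need a second signal beside antigen. CD80 and CD86 give it through CD28 and withdraw it through CTLA-4, while ICOSL acts through the related receptor ICOS. PD-L1 (Cd274) and PD-L2 (Pdcd1lg2) bind PD-1 and restrain T cells, and PD-L1 is a main target of cancer immunotherapy. VISTA (Vsir) and B7-H3 (Cd276) belong to the same B7 family. PVR and nectin-2 (Nectin2) are adhesion proteins of the nectin group that are read by CD226, which activates, and by TIGIT, which inhibits. Galectin-9 (Lgals9) is a sugar-binding protein described as a ligand of TIM-3 (Havcr2). Professional antigen-presenting cells such as macrophages and dendritic cells are the textbook source of CD80 and CD86, whereas nectins are common on cells that adhere to each other.

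The ligand genes lie on 6 chromosomes, in GRCm38 coordinates. Cd274 (ENSMUSG00000016496) and Pdcd1lg2 (ENSMUSG00000016498) are near neighbours on the plus strand, at chr19:29367455-29388095 and chr19:29410919-29471157. Promoter sequence was available for 8 of the 10 genes in RefSeq (GRCm38.p6) and not for Cd86 or Pvr. The 250 bases before the RefSeq start are shown for the neighbouring PD-1 ligand genes, for Nectin2, the ligand with the largest difference toward the CD45- cells, and for Lgals9, the ligand with the highest level per length. They are written 5′ to 3′ on the strand of the gene, from chr19:29367188-29367437 (plus), chr19:29410669-29410918 (plus), chr7:19749574-19749823 (minus) and chr11:78984925-78985174 (minus). Capitals mark CG dinucleotides.
Cd274: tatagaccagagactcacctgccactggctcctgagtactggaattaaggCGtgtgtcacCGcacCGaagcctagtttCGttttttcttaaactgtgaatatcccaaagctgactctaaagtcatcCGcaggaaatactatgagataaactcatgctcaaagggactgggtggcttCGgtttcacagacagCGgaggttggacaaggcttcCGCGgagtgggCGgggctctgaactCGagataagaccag
Pdcd1lg2: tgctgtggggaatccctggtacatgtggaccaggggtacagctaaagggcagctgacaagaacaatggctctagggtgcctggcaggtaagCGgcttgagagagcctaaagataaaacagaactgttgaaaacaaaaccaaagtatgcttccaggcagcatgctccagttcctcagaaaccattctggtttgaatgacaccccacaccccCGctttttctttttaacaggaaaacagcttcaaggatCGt
Nectin2: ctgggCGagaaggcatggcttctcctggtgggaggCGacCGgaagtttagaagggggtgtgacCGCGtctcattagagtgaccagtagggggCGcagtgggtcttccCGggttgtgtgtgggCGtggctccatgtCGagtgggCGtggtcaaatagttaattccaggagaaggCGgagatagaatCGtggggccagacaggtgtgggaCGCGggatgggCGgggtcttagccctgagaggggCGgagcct
Lgals9: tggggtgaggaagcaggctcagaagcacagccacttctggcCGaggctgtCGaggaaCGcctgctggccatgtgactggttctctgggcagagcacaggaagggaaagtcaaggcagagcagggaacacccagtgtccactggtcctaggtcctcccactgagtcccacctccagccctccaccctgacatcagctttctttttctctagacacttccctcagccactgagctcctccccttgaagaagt
The windows of the neighbours were close in GC content, 50.4% and 48.4%, with 11 CG dinucleotides before Cd274 and 3 before Pdcd1lg2. Nectin2 had 16 and Lgals9 had 3, against a median of 6 over the 27025 promoters compared. The genes with most CG dinucleotides were Cd276 with 29 and Icosl with 23. Of the other genes, Vsir had 9 and Cd80 had 3. On both strands, 3 motifs were searched in these windows: the interferon-gamma activated site TTCNNNGAA, the interferon-stimulated response element core (a pair of TTTC runs with any 2 bases between) and an NF-kB site core, and with 1 match in all no match overlapped another. The response element core was found in 1 of the 8 windows, before Lgals9, as tttctttttc from 55 to 46 bases before the start, and in 3.04% of all promoters. The interferon-gamma activated site was in 7.18% and the NF-kB site core in 1.4% of all promoters, and neither was in a window of these 8 genes. A match is a description of letters, and its absence says only that these letters are not in this window.

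Depth ranged from 16594228 to 26784003 counts per library, so that 3 counts corresponded to between 0.103 and 0.201 normalized CPM (counts scaled to a common effective library size). The sort could be seen in the markers, but 5 of the 10 CD45- libraries also held leukocyte transcripts: over 6 leukocyte genes (Ptprc and Laptm5 among them), the median level was 0.51% to 2.5% of that in the CD45+ libraries of the genotype in 5 CD45- libraries and 7.1% to 50.8% in the other 5. The libraries labelled Cdh2-cKO did not have less Cdh2: their CD45- levels were 12.5 to 18.4 normalized CPM, above the 4.52 to 9.14 of the wild type CD45- libraries. Which exons the allele removes is not given in the sources used here, so those libraries are called by their label. Wild type CD45 single positive replicate 2 stood apart, with B cell markers summing to 3474 normalized CPM against 8.6 to 22 in the other 11 CD45+ libraries. Its T cell markers summed to 1538 against 6.3 to 310, its NK cell markers to 197 against 4.99 to 44.1, its neutrophil markers to 847 against 53.5 to 107 and its macrophage markers to 3583 against 11002 to 15944. Dendritic cell markers summed to 585 there against 56.3 to 259, of which Ccr7 alone was at 465. Wild type double negative replicate 3 held the most leukocyte transcripts of the CD45- libraries. The summed fibroblast markers were 3233 to 44343 normalized CPM in the CD45- and 47.3 to 162 in the CD45+ libraries, with the fibroblast marker Pdpn listed at 0 in all 22.

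Of the 10 ligands, 7 were higher in CD45+ than in CD45- cells in both genotypes together and in each genotype alone: Cd274, Pdcd1lg2, Cd80, Cd86, Icosl, Vsir and Lgals9. Nectin2 was lower in CD45+ cells in each genotype, by 8.46-fold in wild type and 4.07-fold in the libraries labelled Cdh2-cKO. Pvr was lower by a small margin that depended on the fit, and Cd276 did not pass the test here but did in 13 of 29 alternative fits over both genotypes. Among all 15043 genes tested, 32.6% were higher and 31.1% lower in CD45+ cells with both genotypes together, so a difference by CD45 was common. The shares were 25.3% higher and 25.7% lower in wild type and 23.6% higher and 27% lower in the libraries labelled Cdh2-cKO. The median log2 fold change was 2.20 over the 10 ligands and 0.06 over all genes. Tests were edgeR quasi-likelihood tests on the counts of all 22 libraries with Benjamini-Hochberg adjustment, and a gene was called at an adjusted p of at most 0.05. In these bulk samples fewer cells of a type and less RNA per cell cannot be told apart. With all 22 libraries considered, 3 ligands had every CD45+ library above every CD45- library (Cd86, Icosl and Vsir), a pattern found in 3.7% of all genes. In 1 ligand every CD45- library was above (Nectin2), found in 11% of all genes. Within 1 genotype such patterns were more common. In wild type, 1044 of 15043 genes had every CD45+ library above and 2128 every CD45- library above. In the libraries labelled Cdh2-cKO, 2645 and 3230 genes did.

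**Figure D1:**
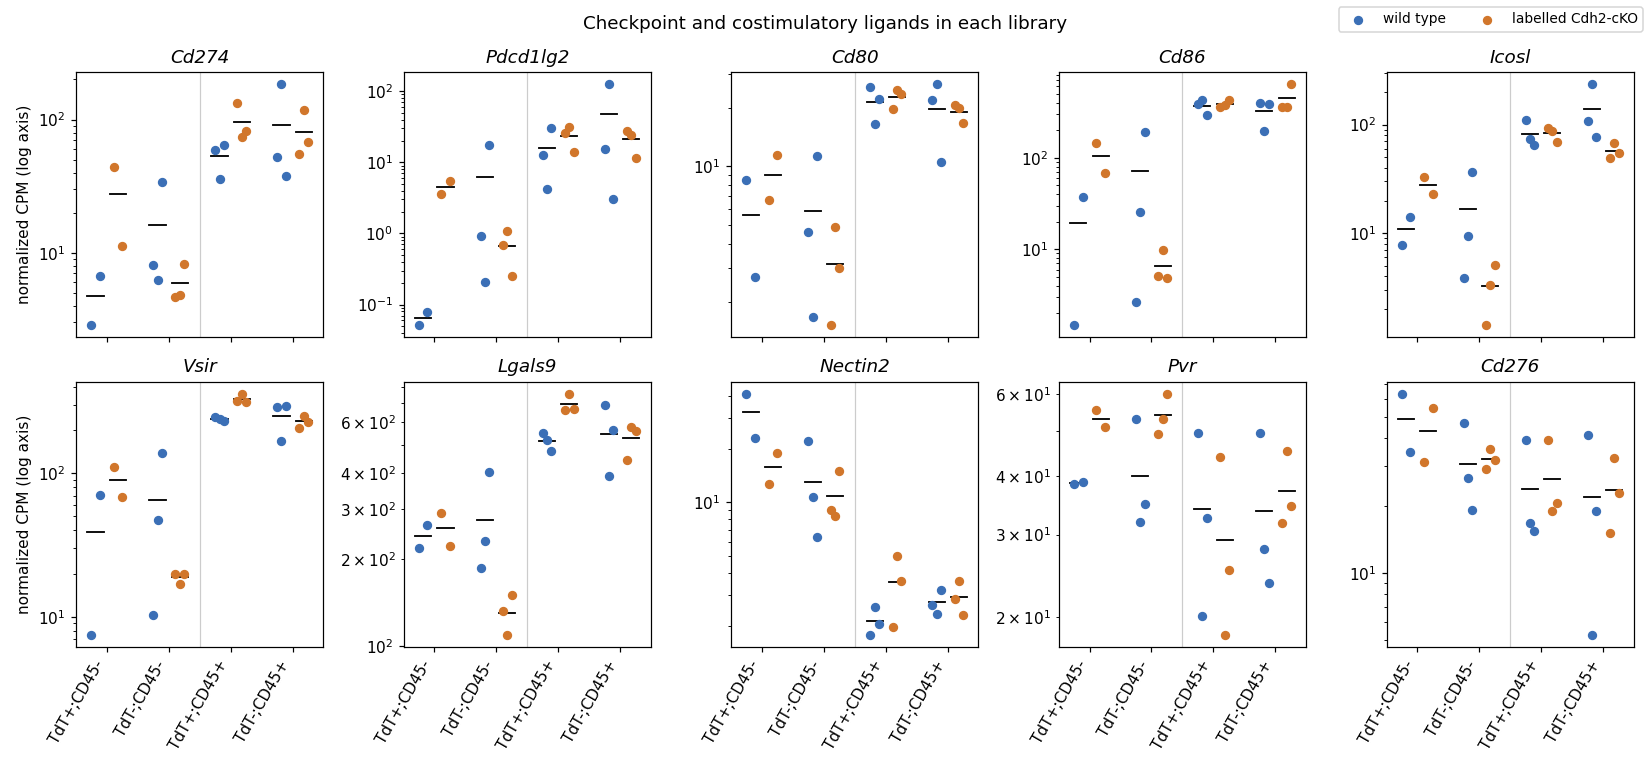
Normalized CPM (log axis) of each ligand in each of the 22 libraries by sorted population, with wild type in blue, the libraries labelled Cdh2-cKO in orange and a black bar at each group mean. Cd86, Icosl and Vsir separate the 12 CD45+ from the 10 CD45- libraries and Nectin2 separates them the other way, while Pvr and Cd276 overlap between populations.

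Cd274, encoding PD-L1, was measured at 58.7, 36.1 and 64.0 normalized CPM in wild type double positive cells and at 52.1, 185 and 37.98 in wild type CD45 single positive cells. In wild type CD45- cells it was at 2.86 and 6.66 in the TdT single positive and at 8.13, 6.24 and 33.8 in the double negative libraries. The CD45+ libraries were all above the CD45- libraries of this genotype, with the highest CD45+ value in CD45 single positive replicate 2, the library with most B cell and T cell transcripts, and the highest CD45- value in double negative replicate 3. In the libraries labelled Cdh2-cKO, Cd274 was at 133, 73.5 and 82.4 in double positive and at 55.6, 118 and 67.5 in CD45 single positive cells. The TdT single positive libraries of that label held 43.7 and 11.2 and the double negative libraries 4.68, 4.798 and 8.21. The groups again did not overlap, although TdT single positive replicate 1 came near the lowest CD45+ library. CD45+ and CD45- cells differed by a log2 fold change of 2.99 ± 0.56 (SE) in wild type (adjusted p = 0.000364) and 2.79 ± 0.55 in the libraries labelled Cdh2-cKO (adjusted p = 0.000545). Without wild type CD45 single positive replicate 2 the wild type value was 2.48.

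Pdcd1lg2, encoding PD-L2, spanned the widest range of the ligands. In wild type it was at 12.5, 4.27 and 30.8 normalized CPM in double positive and at 15.2, 127 and 3.02 in CD45 single positive cells. The wild type TdT single positive libraries held 0.051 and 0.077, which rest on 1 and 2 counts, and the double negative libraries 0.92, 0.20 and 17.3. The groups overlapped in wild type, through double negative replicate 3. Among libraries labelled Cdh2-cKO the CD45+ range was 11.5 to 31.0 and the CD45- range 0.25 to 5.38, without overlap. By CD45, the log2 fold change was 4.54 ± 0.81 over both genotypes (adjusted p = 0.000109), 5.38 ± 1.24 in wild type and 3.69 ± 1.04 in the libraries labelled Cdh2-cKO. The wild type value fell to 4.18 without CD45 single positive replicate 2 and was 6.98 without double negative replicate 3, and it rests in part on the counts of 1 and 2.

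Cd86, a ligand of CD28 and CTLA-4 (ENSMUSG00000022901, chr16:36603869-36666081), had the second largest difference by CD45 over both genotypes. Wild type double positive cells held 387, 425 and 294 normalized CPM and wild type CD45 single positive cells 400, 196 and 381. The wild type CD45- libraries held 1.48 and 36.8 in TdT single positive and 2.67, 25.8 and 189 in double negative cells. The lowest CD45+ library, replicate 2 of the CD45 single positive cells, was just above the highest CD45- library, double negative replicate 3. In the libraries labelled Cdh2-cKO, Cd86 was at 355 to 639 in the 6 CD45+ libraries. The CD45- libraries of that label held 143 and 68.1 in TdT single positive cells and 5.10, 9.93 and 4.83 in double negative cells. As a log2 fold change, the CD45 difference was 3.22 ± 0.83 in wild type (adjusted p = 0.00403) and 3.98 ± 0.87 in the libraries labelled Cdh2-cKO (adjusted p = 0.00112), and the wild type value was 5.06 without TdT single positive replicate 2.

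Cd80 binds the same receptors as CD86 (ENSMUSG00000075122, chr16:38458933-38486933) but differed less between populations. In wild type it was at 25.6, 16.4 and 22.1 normalized CPM in double positive, 21.95, 26.5 and 10.5 in CD45 single positive, 8.53 and 2.71 in TdT single positive and 4.60, 1.69 and 11.3 in double negative cells. The wild type groups overlapped, since double negative replicate 3 lay above CD45 single positive replicate 3. Among libraries labelled Cdh2-cKO the CD45+ range was 16.7 to 24.8 and the CD45- range 1.52 to 11.4. The log2 fold change was 1.84 ± 0.44 in wild type (adjusted p = 0.00229) and 1.96 ± 0.44 in the libraries labelled Cdh2-cKO (adjusted p = 0.00133).

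Icosl, the ICOS ligand (ENSMUSG00000000732, chr10:78069360-78079525), was at 64.7 to 237 normalized CPM in the wild type CD45+ libraries with a median of 92.5, and the highest was again CD45 single positive replicate 2. The wild type CD45- libraries held 3.91 to 36.8 with a median of 9.47. In the libraries labelled Cdh2-cKO the CD45+ libraries ranged from 49.8 to 93.4, TdT single positive libraries held 32.9 and 22.97, and double negative libraries held 1.42, 3.34 and 5.08. No CD45- library reached a CD45+ library in either genotype. CD45+ and CD45- cells differed by a log2 fold change of 3.00 ± 0.50 in wild type (adjusted p = 0.000131) and 2.85 ± 0.50 in the libraries labelled Cdh2-cKO (adjusted p = 0.000197).

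Vsir, encoding VISTA (ENSMUSG00000020101, chr10:60346851-60372684), was at 168 to 295 normalized CPM in the wild type CD45+ libraries and at 7.46 to 139 in the wild type CD45- libraries. Among libraries labelled Cdh2-cKO the ranges were 209 to 360 and 16.9 to 111. The double positive libraries were tightly grouped, at 239 ± 7.7 in wild type and 332 ± 25 in the libraries labelled Cdh2-cKO (SD, n = 3 each). By CD45, the log2 fold change was 2.27 ± 0.54 in wild type (adjusted p = 0.00226) and 2.74 ± 0.55 in the libraries labelled Cdh2-cKO (adjusted p = 0.000596), and the wild type value was 3.47 without TdT single positive replicate 2.

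Lgals9, encoding galectin-9 (ENSMUSG00000001123, chr11:78962974-78984946), was abundant in every population. Wild type cells held 550, 521 and 479 normalized CPM in double positive, 692, 390 and 564 in CD45 single positive, 219 and 263 in TdT single positive and 187, 231 and 403 in double negative libraries. The wild type groups met where double negative replicate 3 lay above CD45 single positive replicate 2. In the libraries labelled Cdh2-cKO the CD45+ range was 443 to 756, the TdT single positive libraries held 290 and 223, and the double negative libraries held 132, 109 and 151. As a log2 fold change, the CD45 difference was 1.05 ± 0.20 in wild type (adjusted p = 0.000432) and 1.73 ± 0.21 in the libraries labelled Cdh2-cKO (adjusted p = 4.59e-06), the smallest difference among the 7 ligands that were higher in CD45+ cells.

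Nectin2 (ENSMUSG00000062300, chr7:19716644-19749573), an adhesion protein and ligand of TIGIT, ran the other way. The 12 CD45+ libraries held 1.78 to 4.999 normalized CPM with a median of 2.61. The wild type CD45- libraries held 41.1 and 23.2 in TdT single positive and 22.1, 10.7 and 6.33 in double negative cells, and the CD45- libraries labelled Cdh2-cKO held 12.7 and 19.0 in TdT single positive and 9.04, 8.38 and 15.05 in double negative cells. Each CD45- library was above each CD45+ library. The log2 fold change was -3.08 ± 0.32 in wild type (adjusted p = 8.25e-07) and -2.02 ± 0.31 in the libraries labelled Cdh2-cKO (adjusted p = 6.3e-05). Genes listed as markers of epithelial tumor cells were counted in both kinds of library. They summed to 27.3 to 1987 normalized CPM in the CD45- and 132 to 470 in the CD45+ libraries. That sum mixes genes that differed in opposite directions, so it does not compare tumor cell content. Krt18 alone was at 17.8 to 1569 in the CD45- and 17.3 to 169 in the CD45+ libraries. Of the 5 genes of that list, Krt8 and Krt18 were lower in CD45+ cells over both genotypes, at -3.41 and -3.51, Cdh1 and Epcam were higher, at 4.07 and 4.96, and Krt14 did not pass. Their part in the Nectin2 difference was not tested.

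Pvr (ENSMUSG00000040511, chr7:19903578-19921160), which shares its receptors with nectin-2, overlapped between the populations. The CD45+ libraries held 18.3 to 49.6 normalized CPM with a median of 32.2, and the CD45- libraries 31.9 to 60.1 with a median of 50.1. The groups overlapped in wild type and did not overlap in the libraries labelled Cdh2-cKO, where the CD45- libraries began at 49.3 and the CD45+ libraries ended at 45.4. CD45+ and CD45- cells differed by a log2 fold change of -0.46 ± 0.18 over both genotypes (adjusted p = 0.0377), -0.22 ± 0.26 in wild type (adjusted p = 0.511) and -0.70 ± 0.26 in the libraries labelled Cdh2-cKO (adjusted p = 0.0325). The call over both genotypes held in 8 of the 22 fits that left out 1 library, with adjusted p from 0.00933 to 0.0719, and was lost without any 1 of 14 libraries. These were wild type TdT single positive 1 and 2, double positive 2 and 3, CD45 single positive 2 and 3 and double negative 1, and, labelled Cdh2-cKO, TdT single positive 1 and 2, double positive 2 and 3, CD45 single positive 1 and 3 and double negative 3. Among libraries labelled Cdh2-cKO the call held in 15 of these fits, with adjusted p from 0.00731 to 0.0815, and was lost without any 1 of the libraries of its own label in that list.

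Cd276 (ENSMUSG00000035914, chr9:58524300-58555132), encoding B7-H3, was at 5.27 to 41.6 normalized CPM in the CD45+ libraries with a median of 19.7, and at 19.1 to 63.4 in the CD45- libraries with a median of 33.3. The lowest value was that of wild type CD45 single positive replicate 2, and the highest that of wild type TdT single positive replicate 1. By CD45, the log2 fold change was -0.67 ± 0.30 over both genotypes (adjusted p = 0.0573), -0.77 ± 0.42 in wild type (adjusted p = 0.141) and -0.58 ± 0.42 in the libraries labelled Cdh2-cKO (adjusted p = 0.264). The value over both genotypes passed the test in 7 of the 22 fits that left out 1 library, with adjusted p from 0.00928 to 0.147. Those left out wild type TdT single positive 2, double positive 1, CD45 single positive 1 or double negative 3, or, labelled Cdh2-cKO, TdT single positive 1, double positive 1 or CD45 single positive 2. It also passed by DESeq2, at -0.74 (adjusted p = 0.0259), by voom, at -0.61 (adjusted p = 0.0444), with RLE factors (adjusted p = 0.0404), with the replicate block (adjusted p = 0.0223) and without both wild type libraries that stood apart (adjusted p = 0.0189), but not with no filter on low counts. In wild type it passed without CD45 single positive replicate 1, at -1.19 (adjusted p = 0.0213).

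**Figure D2:**
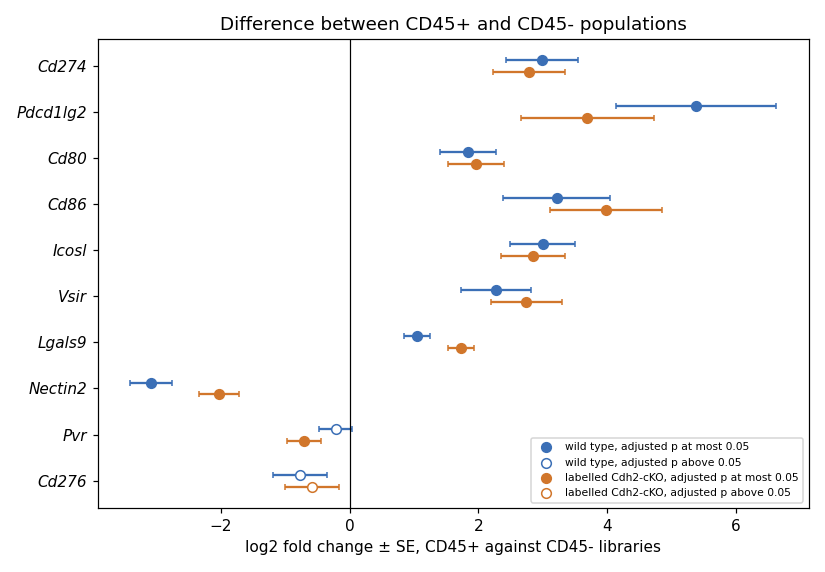
Log2 fold change of each ligand between CD45+ and CD45- libraries, estimated in 1 fit of all 22 libraries within wild type (blue) and the libraries labelled Cdh2-cKO (orange), with bars of 1 SE and filled points at an adjusted p of at most 0.05. Cd274, Pdcd1lg2, Cd80, Cd86, Icosl, Vsir and Lgals9 lie to the right of 0 in both genotypes, Nectin2 lies at -3.08 and -2.02, and Pvr and Cd276 lie between -0.77 and -0.22.

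The ligands differed in how closely their level in CD45- cells followed leukocyte transcripts. For each CD45- library, the level of a ligand was taken as a percentage of its median in the CD45+ libraries of that genotype and set beside the same percentage for the 6 leukocyte genes. Cd86 ran alongside the leukocyte genes, at 0.39% where they were at 0.51% (wild type TdT single positive replicate 1), at 18.6% where they were at 17.8% (TdT single positive replicate 2 labelled Cdh2-cKO) and at 49.1% where they were at 50.8% (wild type double negative replicate 3). In no CD45- library was Cd86 above the highest of the 6 leukocyte genes. Vsir and Icosl were also higher where the leukocyte genes were, with Vsir at 3.1% to 7.0% in the 5 libraries in which those were under 5% and at 19.5% to 57.3% in the other 5. Icosl was at 2.1% to 8.3% in the former and at 10.2% to 47.8% in the latter. Cd274 was at 5.2% to 14.7% in the 5 libraries with fewest leukocyte transcripts, above the median leukocyte gene in each of them, as were Icosl and Vsir. Above the highest leukocyte gene were Cd274 in 4 of these 5 libraries, Icosl in 2 and Vsir in 2.

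Lgals9, Cd80, Nectin2, Pvr and Cd276 were above the highest leukocyte gene in each of the 5 CD45- libraries with fewest leukocyte transcripts. Lgals9 was at 17.5% to 40.9% of its CD45+ median in those libraries. Cd80 was at 7.5% to 38.7% there, and its highest percentage among them was in wild type TdT single positive replicate 1, which held the fewest leukocyte transcripts by this measure. Pvr was at 127% to 181%, Cd276 at 134% to 355% and Nectin2 at 259% to 1668% of their CD45+ medians in those libraries. In the other 5 CD45- libraries, Lgals9, Nectin2, Pvr and Cd276 were again above the highest leukocyte gene in each. Cd80 was above it in only 1 of those 5. Pdcd1lg2 followed no single course: it was at 0.56% in wild type TdT single positive replicate 2, where leukocyte genes were at 11.9%, and at 125% in wild type double negative replicate 3, where they were at 50.8%. What part of any ligand's level the leukocytes in a CD45- library carried was not tested.

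**Figure D3:**
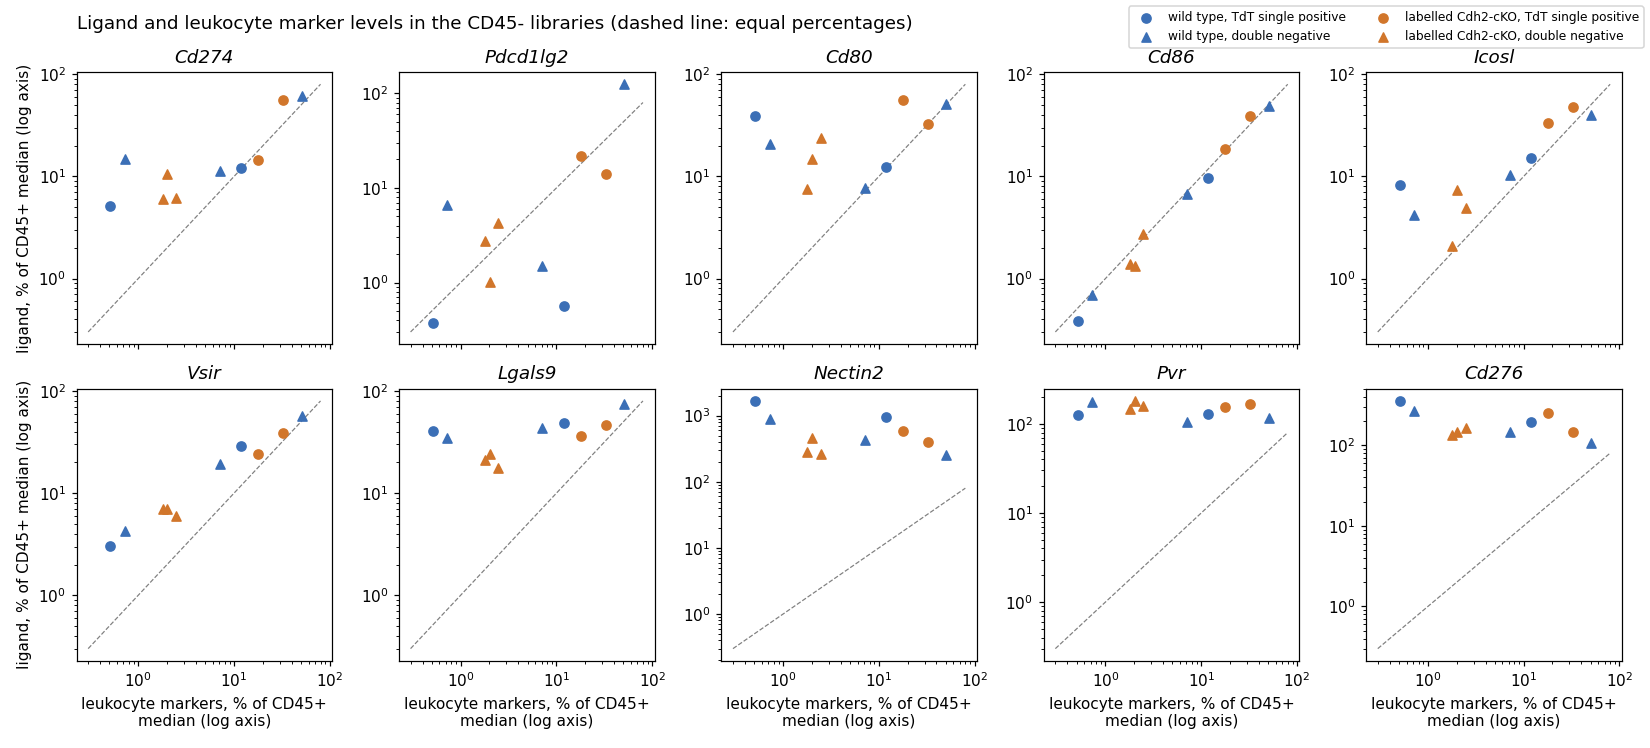
Level of each ligand in the 10 CD45- libraries (vertical, % of its median in the CD45+ libraries of the genotype, log axis) against the median of the same percentage over 6 leukocyte genes (horizontal, log axis), with circles for TdT single positive and triangles for double negative libraries, and a dashed line where both percentages are equal. Cd86 lies along the line from 0.39% to 49.1%, Lgals9 lies at 17.5% or above, and Nectin2, Pvr and Cd276 lie above 100% in each library.

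Leaving out the 5 CD45- libraries with most leukocyte transcripts, a choice made after the data were seen, removed both TdT single positive libraries labelled Cdh2-cKO, so that this group was absent. The CD45- cells were then wild type TdT single positive replicate 1, wild type double negative replicate 1 and the 3 double negative libraries labelled Cdh2-cKO. The CD45- level was the mean of these groups with equal weight, so wild type weighed more on the CD45- than on the CD45+ side. Because libraries were removed by their leukocyte transcripts, larger differences for ligands that followed those transcripts were built into the choice. Of all genes tested in this fit, 28.1% had a higher and 30.2% a lower level in CD45+ cells. The same 7 ligands were higher in CD45+ cells and the differences of 5 of them grew most. The log2 fold change over both genotypes went from 3.60 to 6.92 for Cd86, from 2.51 to 4.44 for Vsir, from 2.93 to 4.13 for Icosl, from 2.89 to 3.83 for Cd274 and from 4.54 to 6.15 for Pdcd1lg2. It moved little for Cd80, from 1.90 to 1.97, and for Lgals9, from 1.39 to 1.62. Nectin2 went from -2.55 to -3.02. Cd276 was then called, at -1.02 (adjusted p = 0.036), and Pvr was not, at -0.60 (adjusted p = 0.0577).

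Levels of different ligands can be compared per length of exon, as normalized RPKM. In the 12 CD45+ libraries Lgals9 had the highest median, 263, followed by Cd86 at 103, Vsir at 49.8, Icosl at 27.2 and Cd274 at 18.2. Cd80 at 12.5 and Pdcd1lg2 at 11.9 came next, and these neighbours in the order overlapped widely, with Pdcd1lg2 spanning 1.83 to 77.0. Cd276 at 5.98 and Pvr at 5.95 could not be ordered beyond their spread, and Nectin2 was lowest at 0.76. In the 5 CD45- libraries with fewest leukocyte transcripts Lgals9 again had the highest median, 70.6, but the next places went to Cd276 at 10.9, Pvr at 9.80 and Nectin2 at 4.37. Vsir at 3.36, Cd80 at 2.70, Icosl at 1.42, Cd274 at 1.32, Cd86 at 1.32 and Pdcd1lg2 at 0.42 followed, with overlap between neighbours. Cd86 thus stood second of 10 among CD45+ libraries and ninth of 10 in these CD45- libraries, where it was level with Cd274. These CD45- libraries were chosen for few leukocyte transcripts, which Cd86 followed, so its low place there was built into the choice. Over all 10 CD45- libraries its median was 4.89, below Vsir at 6.72 and above Nectin2 at 4.04.

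**Figure D4:**
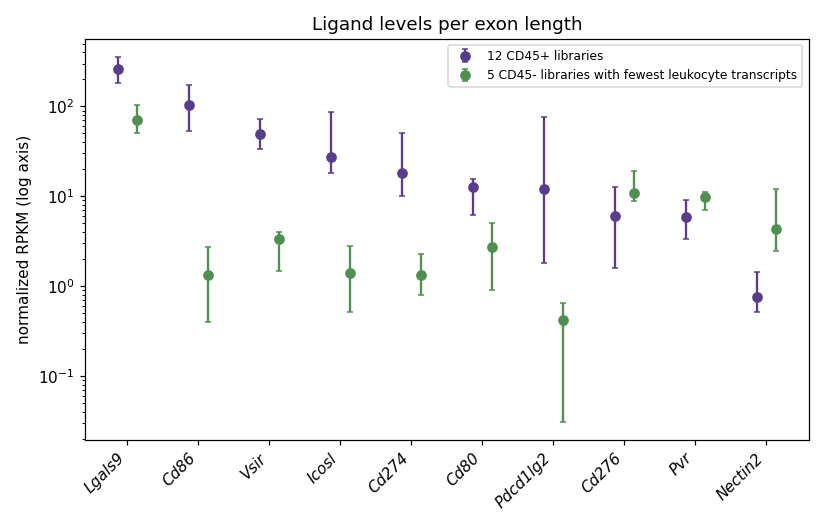
Median normalized RPKM (log axis) of each ligand in the 12 CD45+ libraries (purple) and in the 5 CD45- libraries with fewest leukocyte transcripts (green), with bars from the lowest to the highest library. Lgals9 is highest in both sets, at 263 and 70.6, and Cd276, Pvr and Nectin2 are the ligands whose green point lies above the purple point.

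Whether Osx-cre lineage cells differed from their unmarked counterparts was asked separately among CD45+ and CD45- cells. Among CD45+ cells, 0 of 10 ligands differed between double positive and CD45 single positive cells in either genotype, by edgeR, by voom or by DESeq2, and by edgeR 0 had an unadjusted p below 0.05, against 4.45% of all genes in wild type and 4.81% in the libraries labelled Cdh2-cKO. Over all genes edgeR called 0% in wild type and 0% in the libraries labelled Cdh2-cKO. In the same order, voom called 0% and 0.00665% and DESeq2 0.0332% and 0.0133%. Examples of the log2 fold changes are 0.18 ± 0.97 for Cd86 and -0.07 ± 0.66 for Vsir in wild type. The narrowest was Lgals9, at -0.09 ± 0.26 in wild type and 0.40 ± 0.26 in the libraries labelled Cdh2-cKO.

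Among CD45- cells of wild type mice, 0 of 10 ligands differed between TdT single positive and double negative cells by edgeR, against 0.16% of all genes, and 3 had an unadjusted p below 0.05, as did 16.7% of all genes. Nectin2 was higher in TdT single positive cells by a log2 fold change of 1.30 ± 0.45 that did not pass (adjusted p = 0.187) and did without double negative replicate 1, at 1.92 (adjusted p = 0.0326), a fit that called 3.17% of all genes. DESeq2 called Pdcd1lg2, lower in TdT single positive cells, where the libraries hold 1 and 2 counts, and 3.36% of all genes. No ligand was called by voom. Of the libraries labelled Cdh2-cKO, 0 of 10 ligands passed by edgeR on all 22 libraries, against 0.0332% of all genes, and 6 had an unadjusted p below 0.05, as did 12.9% of all genes.

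In that comparison the edgeR values leaned to TdT single positive cells, with Cd86 at a log2 fold change of 4.00 ± 1.14 (adjusted p = 0.129), Icosl at 3.08 ± 0.69 (adjusted p = 0.0893), Vsir at 2.25 ± 0.74 (adjusted p = 0.157), Cd274 at 2.22 ± 0.74 (adjusted p = 0.165) and Lgals9 at 0.98 ± 0.29 (adjusted p = 0.134). DESeq2 called Cd86, Icosl and Lgals9, voom called those and Vsir, and a fit of these libraries without the wild type called 7, adding Cd274, Pdcd1lg2 and Cd80. Of all genes, DESeq2 called 4.17%, voom 3.66% and the fit without the wild type 8.1%. Without both wild type libraries that stood apart 5 ligands were called, against 6.18% of all genes. Calls also appeared without 1 library: 3 without wild type double negative replicate 1, 3 without wild type double negative replicate 3 and 1 without wild type CD45 single positive replicate 2, where 2.85%, 4.01% and 0.511% of all genes were called. With no filter on low counts 1 ligand and 0.206% of all genes were called. The same TdT single positive libraries held leukocyte genes at 32.6% and 17.8% of CD45+ medians against 1.8%, 2.5% and 2.0% in the double negative libraries, and Ptprc itself had a log2 fold change of 3.41 ± 1.18 (adjusted p = 0.179). Nectin2, Pvr and Cd276 were at 0.55 ± 0.45, -0.03 ± 0.39 and 0.41 ± 0.63 in this comparison. Whether the leukocyte transcripts account for these differences was not tested.

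Between genotypes, 0 of 10 ligands differed by edgeR in any of the 4 populations. Of all genes, 0.00665% were called in TdT single positive cells and 0% in each of the CD45+ populations and in double negative cells. At an unadjusted p below 0.05 there were 5 ligands in double negative cells, 2 in TdT single positive cells, 1 in CD45 single positive cells and 0 in double positive cells, against 9.59%, 10.5%, 9.83% and 3.42% of all genes. In double negative cells Icosl was at a log2 fold change of -2.34 ± 0.64, Lgals9 at -1.07 ± 0.26 and Cd86 at -3.45 ± 1.07 in the libraries labelled Cdh2-cKO relative to wild type (adjusted p = 0.18, 0.18 and 0.184). DESeq2 called these 3, with 3.47% of all genes, and voom called 0. Without wild type double negative replicate 1 edgeR called them and Vsir, with 4.03% of all genes. Leukocyte genes were at 1.8% to 2.5% of CD45+ medians in the double negative libraries labelled Cdh2-cKO and at 0.72%, 7.1% and 50.8% in the wild type ones, and that part was not tested. In TdT single positive cells Cd274 was at 2.52 ± 0.87 (adjusted p = 0.362), with leukocyte genes at 32.6% and 17.8% against 0.51% and 11.9%, and DESeq2 alone called Pdcd1lg2, against the wild type counts of 1 and 2, with 0.911% of all genes.

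The CD45 difference itself did not depend detectably on genotype for any ligand: 0 of 10 passed the test of the interaction by edgeR, voom or DESeq2. Of all genes, 0% were called by edgeR, 0% by voom and 0.206% by DESeq2. By edgeR 2 ligands had an unadjusted p below 0.05, as did 7.69% of all genes. The differences of the log2 fold changes (libraries labelled Cdh2-cKO minus wild type) were 1.06 ± 0.44 for Nectin2 (adjusted p = 0.625), 0.68 ± 0.28 for Lgals9 (adjusted p = 0.609), 0.76 ± 1.03 for Cd86 and -0.21 ± 0.71 for Cd274. The error was largest for Pdcd1lg2, at -1.69 ± 1.52.

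Receptors that read these ligands were also compared by CD45. Of 9 receptor genes tested, 7 were higher in CD45+ cells with both genotypes together (Pdcd1, Cd28, Ctla4, Icos, Cd226, Cd96 and Havcr2), Rgmb, a receptor for PD-L2, was lower at -1.19, and Tigit did not pass. In wild type 8 were higher, and in the libraries labelled Cdh2-cKO 1 was, Havcr2, but the CD45 difference depended on genotype by the interaction test for none of the 9. Without wild type CD45 single positive replicate 2, 6 were higher in wild type and 5 in the libraries labelled Cdh2-cKO. The counts by genotype thus changed with that library. Of all genes, 32.6% were higher over both genotypes, 25.3% in wild type and 23.6% in the libraries labelled Cdh2-cKO. Those shares are for the fit with all libraries, and shares without that library are not given here. The median log2 fold change over both genotypes was 3.36 for the list and 0.06 for all genes. The largest were Cd226 at 4.46 ± 1.13 (adjusted p = 0.00226), Icos at 4.09 ± 0.83 (adjusted p = 0.000342) and Cd28 at 3.80 ± 0.83 (adjusted p = 0.000716). In wild type CD45 single positive cells Cd28 was at 60.1 ± 101 normalized CPM (SD, n = 3), with libraries from 1.83 to 176. Without that replicate, whose T cell markers summed to 1538 normalized CPM, 6 receptors were higher over both genotypes, with Cd28 at 2.57, Icos at 3.19 and Cd226 at 3.37, and Cd96 was not called, at 1.84 (adjusted p = 0.0801). Havcr2, encoding TIM-3, was at 162 ± 11 normalized CPM in wild type double positive cells and at 171 ± 9.4 in CD45 single positive cells labelled Cdh2-cKO (SD, n = 3 each).

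Of 15 other checkpoint and costimulatory ligands, 13 could be tested, of which 8 were higher and 5 lower in CD45+ cells, with a median log2 fold change of 1.19. In wild type 6 were higher and 5 lower, and in the libraries labelled Cdh2-cKO 7 and 5. Of all genes, 32.6% were higher and 31.1% lower over both genotypes. Nectin3, which pairs with nectin-2 and other nectins, was lower by the largest margin, -4.10 ± 0.35 (adjusted p = 3.16e-08), at 0.76 to 2.62 normalized CPM in the group means of CD45+ cells and 16.5 to 28.6 in those of CD45- cells. Btnl2, a butyrophilin-like inhibitor of T cells, was higher at 3.68 ± 0.65 (adjusted p = 0.000102) and Cd48, a leukocyte surface protein that binds CD244, at 3.58 ± 0.63 (adjusted p = 9.41e-05). Nectin1 was lower as well, at -1.28, together with Lgals1, Fgl1 and Tnfsf18. Tnfsf4 was called at 1.64 (adjusted p = 0.0328) but not without wild type CD45 single positive replicate 2, at 1.47 (adjusted p = 0.054).

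Of 11 genes of the interferon-gamma route and of PD-L1 regulation, 5 were higher and 1 lower, with a median log2 fold change of 0.06, the same as for all genes. In wild type 4 were higher and 1 lower, and in the libraries labelled Cdh2-cKO 4 and 0. The shares of all genes over both genotypes were 32.6% higher and 31.1% lower. Ifng, the cytokine, was at 3.68 ± 1.26 (adjusted p = 0.0171) but was not called without wild type CD45 single positive replicate 2, at 1.99 (adjusted p = 0.105). Socs1, an inhibitor of the route, was at -1.06 (adjusted p = 0.0507) and was called without that library, at -1.37 (adjusted p = 0.0106). Both receptor chains were higher, Ifngr1 at 1.71 ± 0.14 (adjusted p = 2.47e-08) and Ifngr2 at 1.05 ± 0.15. Cmtm6, which keeps PD-L1 at the cell surface, was higher at 1.04 and Cmtm4, its relative, lower at -0.90. Irf1 and Jak2 had values of 0.04 ± 0.27 and -0.04 ± 0.19. No gene of these 3 lists was called by edgeR in a comparison by TdT or by genotype. The study listed Icos, Pdcd1, Ctla4, Cd226 and Cd28 among the top genes higher in double positive than in CD45 single positive cells. Here the wild type comparison includes CD45 single positive replicate 2. Its T cell markers summed to 1538 normalized CPM, against 18.9 and 16.2 in replicates 1 and 3. Without that replicate edgeR called 0% of all genes in this comparison. What sets the results apart was not tested.

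Patterns across the 22 libraries, measured as Pearson's r of log2 CPM and given as a description, set the ligands apart. Libraries share the sort and the leukocyte content, so high values are common. Cd86 was most like Pkib, Cybb and Ctss (r = 0.996, 0.996 and 0.995) and Vsir most like Itgam, Ucp2 and Cybb (r = 0.992, 0.992 and 0.991); Cybb and Itgam are genes of myeloid cells. Cd274 was most like Rubcnl, Slc7a2 and Arhgap25 (r = 0.973, 0.968 and 0.966), Icosl most like Pik3cd, Akna and Casz1 (r = 0.982, 0.978 and 0.973) and Lgals9 most like Emilin2, Rhog and Sirpa (r = 0.976, 0.975 and 0.974). Pdcd1lg2 was most like Lmnb1, Mgl2 and Ccl24 (r = 0.946, 0.945 and 0.943), and genes like Cd80 included Htt and Smim24 (r = 0.965 and 0.928). Nectin2 was most like Pdia5, P3h3 and Mmp2 (r = 0.986, 0.970 and 0.969), of which P3h3 modifies collagen and Mmp2 is a matrix metalloproteinase. Cd276 was most like 9530068E07Rik, Lrp1 and Ttl (r = 0.885, 0.872 and 0.869). Without wild type CD45 single positive replicate 2 these values were 0.815, 0.758 and 0.834. Pvr was most like Pgf, Ndrg1 and Pogk (r = 0.826, 0.809 and 0.809), the weakest of the 10 over all 22 libraries.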

How the data were processed

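RNA of the sorted cells was amplified with Clontech SMARTer v1, sequenced, aligned by the authors with STAR 2.0.4b to GRCm38 and counted per gene with featureCounts; whether strand was used is not stated, so a gene and an antisense partner cannot be told apart. The deposited files give read counts, CPM (counts scaled to the total count of the library) and RPKM (CPM per kilobase of exon) for each gene; the deposited CPM and RPKM could be recomputed from the counts. Counts were used. Normalized CPM and RPKM in the text are counts divided by TMM effective library sizes.

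Ribosomal RNA genes (355) were removed, and 15043 genes above 1 CPM in at least 2 libraries were fitted with edgeR 4.0.16 (quasi-likelihood, 8 group means, all 22 libraries). The script was tested on simulated counts. The SE given for edgeR values is the absolute log2 fold change divided by the square root of the quasi-likelihood F statistic, an approximation. limma 3.58.1 (voom with quality weights) and DESeq2 1.42.0 were alternatives. Separate animals are stated only as biological replicates; no library pair in a group agreed within counting noise (chi-square per degree of freedom of at least 49.7). Floors cover counting error only.

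The ligands and the gene lists were chosen with earlier results of these data known. Genes named besides the ligands were, per list, the 3 largest calls by CD45, and per ligand the 3 highest correlations; Pvrig was not matched by symbol. Some genes that this rule names are not reported here. Others named from the lists, and single leukocyte, keratin and fibroblast genes, were chosen after their values were seen.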

Additional observations from a re-analysis of the deposited data

How the results depend on the processing

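The 7 ligands higher in CD45+ cells were the same genes, with the same direction and on the same side of the threshold, in both genotypes together and in each genotype, under voom, DESeq2, RLE factors, no filter on low counts, each genotype fitted alone, the replicate block, every fit without 1 library and the fit without both wild type libraries that stood apart; the same holds for Nectin2, lower in CD45+ cells. Requiring a log2 fold change of at least 2 as well left 5 ligands higher and 1 lower in each of these comparisons, with 2, 1 and 2 lower without that requirement. The shares of all genes given above are for the rule without that requirement, so these counts have no background here. Of 870 recomputed log2 fold changes by CD45, 832 kept direction and side, 23 lost the call, 15 gained it and 0 reversed; all 38 that moved were of Pvr or Cd276. The count of lower ligands ranged from 1 to 3 over both genotypes, from 1 to 2 in wild type and from 1 to 2 in the libraries labelled Cdh2-cKO when 1 library was left out.

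Between TdT single positive and double negative cells, the counts of 0 became 1 in wild type by DESeq2 and, in the libraries labelled Cdh2-cKO, 3 by DESeq2, 4 by voom, 7 with each genotype fitted alone, 1 with no filter on low counts and 5 without both wild type libraries that stood apart. Leaving out 1 library gave 0 to 1 in wild type and 0 to 3 in the libraries labelled Cdh2-cKO. Between genotypes, DESeq2 gave 1 in TdT single positive and 3 in double negative cells, and leaving out 1 library gave 0 to 4 in double negative cells. The cause was not tested.

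The replicate numbers pair no libraries by label. In wild type, 4 of 15 same-numbered and 5 of 30 differently numbered pairs had deviations correlated above 0.1. In the libraries labelled Cdh2-cKO, 6 of 15 same-numbered and 1 of 30 differently numbered pairs did. Of the 22 libraries, 12 were most like one of their own number. Whether libraries of the same number share a mouse was not tested. With the replicate block, 7 ligands were higher and 3 lower over both genotypes (Cd276 added), and no other count changed. With 2 to 3 libraries per group, differences between genotypes or by TdT are measured with standard errors up to 2.13 on the log2 scale, and p-values cover the spread between these libraries.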
